A study of Mus musculus with 4 samples.

Results

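The 6 genes described here encode neurotrophins and their receptors: Bdnf, Ntf3 and Ntf5 (ligands), and Ngfr, Ntrk2 and Ntrk3 (receptors). They were chosen by symbol, and all 6 were found among the 32285 genes of the count matrices. Neurotrophins are small secreted growth factors, made as larger precursors that proteases cut to the mature form. BDNF (from Bdnf) and neurotrophin-4 (from Ntf5) bind the receptor tyrosine kinase TrkB (Ntrk2), and neurotrophin-3 (Ntf3) binds mainly TrkC (Ntrk3). The receptor p75 (Ngfr), which has no kinase, binds all of them and, together with proteins of the sortilin family, their precursors. Best known for keeping neurons alive, the family is also known in the ovary for roles in follicle assembly, early follicle growth and the supply of nerves.

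The genes were read in single-cell RNA sequencing of mouse ovaries, the animals being treated from postnatal day 25, before puberty. There were 4 groups: PBS or saline (control), doxorubicin (3 mg/kg), the same dose together with recombinant human AMH at 0.75 mg/kg (doxorubicin+AMH), and this dose of AMH without doxorubicin (AMH). Doxorubicin is an anthracycline that damages DNA, and AMH (anti-Müllerian hormone) is a hormone of granulosa cells, tested in this study for protection of the ovary. Doxorubicin was given in 2 weekly doses and ovaries were taken 4 hours after the second dose, 1 ovary from each of 5 mice being pooled into 1 library per group.

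With 1 library per group there is no replicate, so no difference below was tested, and every ratio compares libraries. Levels are given as CPM, the UMIs of a gene per 1000000 UMIs of the same cells, a UMI being a molecular tag that marks 1 captured transcript. Unless stated otherwise, 4 values in a row stand for the control, doxorubicin, doxorubicin+AMH and AMH libraries, in that order. Intervals are 95% and cover counting error only. The libraries held 7141 to 9478 barcodes with a median of 9834.5 to 13575 UMIs, and 28451 of 33639 barcodes were kept. They fell into 33 clusters, of which 31 were named by marker genes in 11 classes, written with "-like". Between 11 and 24 barcodes were shared by any pair of libraries. The 6 genes and their pathway were left out of the clustering, so that their levels did not shape the classes. No cluster was named as oocytes, glia or neurons.

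In the annotation of the build that the submitters name (GRCm38, also called mm10), Bdnf lies at chr2:109674700-109727007 on the plus strand, Ntf3 at chr6:126101412-126166910 on the minus strand and Ntf5 at chr7:45413695-45417179 on the plus strand. Ngfr lies at chr11:95568818-95587735 on the minus strand, Ntrk2 at chr13:58806569-59133970 on the plus strand and Ntrk3 at chr7:78175959-78738012 on the minus strand. Exons of Bdnf overlap the antisense gene Gm45346. Ntrk2 and Ntrk3 contain other genes within their introns. Counts were made per gene from 3′ libraries, so they do not separate the kinase and truncated forms of TrkB and TrkC, nor the alternative first exons of Bdnf. Whether reads in introns were counted is not given in the sources used here, and the levels of the long genes Ntrk2 and Ntrk3 (327402 and 562054 bases) depend on it.

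The RefSeq promoter table (GRCm38.p6) held start regions for 4 of the 6 genes, 7 of them for Bdnf. A stretch of 150 bases upstream of a start site and outside any exon is shown for each of the 4, to set the start regions of the genes below side by side; for Bdnf it is the 1 window with a TGACG match, chosen for that match. Capitals mark matches, on either strand, to TGACG (a cAMP response element core), GGCGCC (a GC-rich element bound by SMADs of the BMP and AMH pathway) or GGGCGG (an SP1 box). The windows lie at chr2:109692286-109692435 (plus strand), chr6:126164961-126165110 (minus), chr11:95587736-95587885 (minus) and chr13:58806322-58806471 (plus). For Ntf3, the start region at the outer end of the gene had only 84 bases outside exons. The window shown is therefore that of a start inside the annotated gene. The Ntrk2 window ends at 58806471, short of the gene start at 58806569, since only 153 bases of its region were usable.
Bdnf: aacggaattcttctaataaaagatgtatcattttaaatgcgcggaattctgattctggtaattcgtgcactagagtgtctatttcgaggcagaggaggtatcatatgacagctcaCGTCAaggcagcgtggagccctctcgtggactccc
Ntf3: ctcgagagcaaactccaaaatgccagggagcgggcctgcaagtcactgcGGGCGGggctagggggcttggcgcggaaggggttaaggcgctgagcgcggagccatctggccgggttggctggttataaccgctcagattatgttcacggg
Ngfr: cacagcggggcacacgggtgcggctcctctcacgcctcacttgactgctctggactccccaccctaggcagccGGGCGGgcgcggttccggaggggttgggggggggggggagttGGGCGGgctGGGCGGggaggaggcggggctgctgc
Ntrk2: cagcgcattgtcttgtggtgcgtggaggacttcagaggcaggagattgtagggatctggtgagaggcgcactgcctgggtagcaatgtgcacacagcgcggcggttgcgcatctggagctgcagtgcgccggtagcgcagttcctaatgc

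The Bdnf window held 1 TGACG match, read on the opposite strand. Of the other 6 windows of Bdnf, which are not shown, 1 (chr2:109694259-109694408) held a GGCGCC match, 1 (chr2:109676882-109677031) held 2 GGGCGG matches, and 4 held none of the 3 motifs. The Ngfr window held 3 GGGCGG matches and a GC content of 76%, against a median of 54% over 32851 promoter windows of this length. The Ntf3 window held 1 GGGCGG match, and the Ntrk2 window held none of the 3 motifs. Over all promoter windows, TGACG was found in 13.3%, GGCGCC in 7.01% and GGGCGG in 28.6%. Those windows lie directly before the start site, with exons not left out. The Ngfr and Ntrk2 windows were moved upstream to avoid exons, so they are not placed alike. A match describes the letters only.

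**Figure D1:**
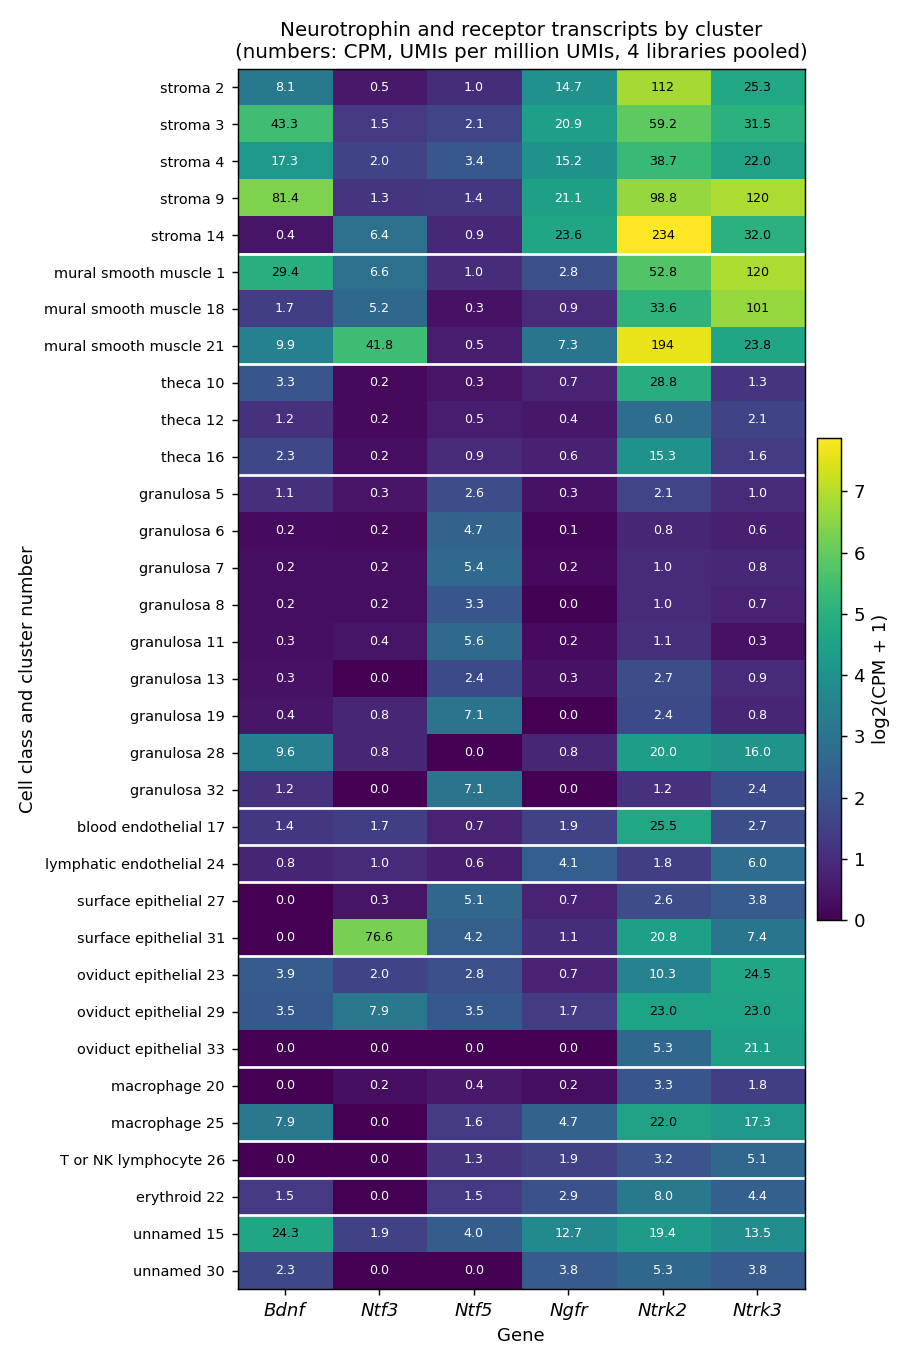
Pooled level of each gene (columns) in each cluster (rows), in CPM over the 4 libraries; the color is log2(CPM + 1) and the number in each cell is the CPM. Ntrk2 and Ntrk3 are above 20 CPM in every stroma-like and mural-like row, Ngfr is highest in the stroma-like rows, Bdnf is highest in stroma-like cluster 9 (81.4) and at 0.4 in stroma-like cluster 14, Ntf3 is highest in surface epithelial-like cluster 31 (76.6), and Ntf5 stays under 10 CPM in every row.

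Transcripts of these genes lay mostly in the supporting tissue between follicles. Stroma-like cells (Dcn, Lum, Pdgfra), the fibroblasts of the ovary, held 18.2% of all UMIs but 60.4% of the Bdnf, 77.5% of the Ngfr and 62.2% of the Ntrk2 UMIs. Mural-like cells (Acta2, Myh11, Rgs5), which are smooth muscle cells and pericytes, held 8.35% of all UMIs but 49.8% of the Ntrk3 and 41.2% of the Ntf3 UMIs. Granulosa-like cells, the somatic cells inside follicles, held 48.0% of all UMIs and 71.2% of the Ntf5 UMIs, but only 2.66% of the Bdnf and 2.56% of the Ntrk2 UMIs. Erythroid-like cells, in which none of the receptors would be looked for, served as a measure of background from free RNA: pooled, they held 7.98 CPM of Ntrk2 (11 UMIs), 4.35 CPM of Ntrk3 (6 UMIs), 2.90 CPM of Ngfr (4 UMIs) and 1.45 CPM of Bdnf (2 UMIs). They were shallower, at a median of 5451 UMIs per cell, than granulosa-like cells at 20128 and theca-like cells at 18317. Their CPM is thus a background of unlike depth for those classes.

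Bdnf, the ligand of TrkB, was carried by a small share of stroma-like and mural-like cells. In stroma-like cells its level was 34.3, 28.2, 23.5 and 27.8 CPM, and in mural-like cells 19.97, 24.1, 26.45 and 26.1 CPM. The ranges of these classes over the 4 libraries overlapped, so their order was not separated. Theca-like cells held 1.53 to 2.90 CPM and granulosa-like cells 0.22 to 0.72 CPM, both inside the erythroid-like range of up to 4.38 CPM. Of the classes too small to compare, oviduct epithelial-like cells held a pooled 3.69 CPM, and surface epithelial-like cells held no Bdnf UMI in any library. Of 9337 stroma-like cells, 979 had a Bdnf UMI, with 2.97 UMIs per such cell, and the 94 cells with most of it (1% of the class) held 35.5% of its UMIs. Thinned to 2000 UMIs per cell, which left out 41 to 54 shallower cells per library, 4.45%, 3.99%, 3.04% and 2.92% of stroma-like cells had a Bdnf UMI (11.7%, 11.7%, 9.73% and 8.43% before thinning, at median depths of 8464.5, 11009, 8519.5 and 7593.5 UMIs), against 0 of 191 erythroid-like cells at a median of 5451 UMIs, which allows a share of up to 1.57% (the floor of 3 counts).

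Within the stroma, Bdnf was patchy. Cluster 9, led by Mfap4, Mfap5 and Slit3, held 96.2, 93.8, 58.0 and 67.25 CPM, and cluster 3, led by Frem1, Kcnk2 and Penk, held 52.2, 40.9, 30.0 and 51.4 CPM. By marker count, cluster 9 was a candidate for the mural name as well as for stroma. Cluster 14, led by the fibroblast genes Dpt, Clec3b and C3, held 1 Bdnf UMI in each library (0.27 to 0.67 CPM). Cluster 9 lay above cluster 3 beyond the counting intervals in every library except AMH, where the intervals touched, and cluster 3 lay above cluster 14 in all 4. Among mural-like cells, the contractile cluster 1 (Myh11, Acta2, Actg2) held 26.3, 26.95, 29.6 and 34.6 CPM, and in the AMH library 1 cell held 86 of the 324 mural-like Bdnf UMIs.

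Ntf3, the ligand of TrkC, reached its highest levels in 2 small clusters. Mural-like cells held 9.80, 11.3, 7.84 and 8.63 CPM, and stroma-like cells 1.88, 1.35, 2.35 and 2.79 CPM, with no overlap between these classes. With cells gated directly on markers, the mean of the 4 libraries in mural-like cells was 21.8 CPM in place of 9.395 CPM. Among mural-like clusters its level was highest in cluster 21, led by the pericyte genes Rgs5, Ndufa4l2 and Notch3, at 45.4, 44.1, 33.7 and 39.8 CPM. The much larger contractile cluster 1 (Myh11, Acta2, Actg2), at a pooled 6.6 CPM, held 237 of the 430 mural-like UMIs and cluster 21 held 160. Surface epithelial-like cells, which cover the ovary, held 20.25, 32.6, 1.74 and 31.8 CPM. Nearly all of that lay in cluster 31, led by C3, Slpi and Upk3b, at 77.8, 89.7, 23.6 and 60.4 CPM from 66, 100, 1 and 50 UMIs. The other surface cluster, 27 (Lgals7, Upk3b, Nrg1), held 0.41, 0, 0 and 1.28 CPM, so that the surface clusters lay far apart in the 3 libraries with more than 2 cells of cluster 31. The doxorubicin+AMH library had 2 cells of cluster 31, against 41, 39 and 35 in the others, and both its class level and its cluster 31 level, on 1 UMI, were lowest. The part of the cell numbers in this was not tested.

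Ntf5, which encodes neurotrophin-4, another ligand of TrkB, was the one of the 6 genes held mostly by granulosa-like cells. Its level there was 3.02, 5.24, 5.06 and 4.09 CPM (intervals 2.61 to 3.47, 4.68 to 5.84, 4.51 to 5.64 and 3.65 to 4.57), so the control library lay lowest. Erythroid-like cells held a pooled 1.45 CPM (0.18 to 5.24), on 2 UMIs, and up to 4.38 CPM in a library. That interval holds all 4 granulosa-like levels, so with so few UMIs this measure does not separate any of them from background. The theca-like level, given next, was under the granulosa-like level in every library. Stroma-like cells held 1.56, 2.25, 2.57 and 2.40 CPM, surface epithelial-like cells 6.95, 2.28, 3.48 and 5.60 CPM, and theca-like cells 0.48 to 0.58 CPM. The granulosa-like and surface epithelial-like ranges overlapped. The UMIs were spread thinly, over 880 of 9607 granulosa-like cells with 1.30 UMIs per such cell, and after thinning 0.43%, 0.93%, 1.13% and 0.58% of cells had one (7.83%, 11.03%, 10.2% and 7.999% before thinning, at median depths of 22461, 21788.5, 20903 and 16270.5 UMIs), against 0.52% of erythroid-like cells at a median depth of 5451 UMIs. Across granulosa-like clusters the pooled level ran from 2.4 to 7.1 CPM, except in cluster 28, of which 179 of 181 cells came from the doxorubicin library and which held no Ntf5 UMI.

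**Figure D2:**
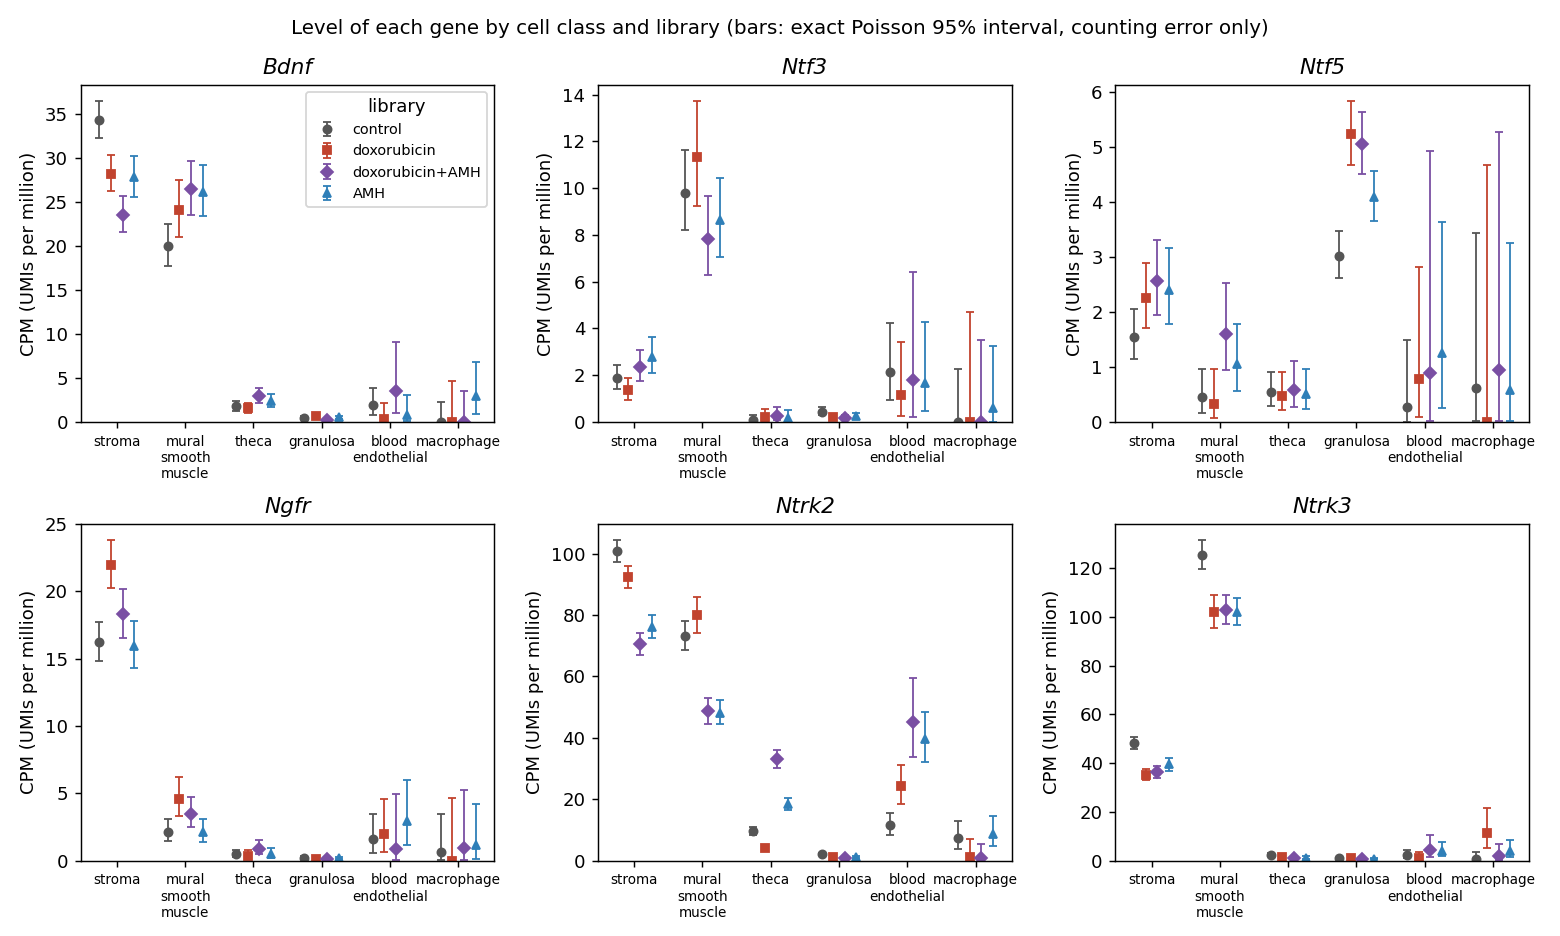
Level of each gene in CPM (vertical axis) by cell class (horizontal axis) and library (colors and symbols); bars are exact Poisson 95% intervals and cover counting error only. Ntrk3 in mural-like cells runs from 102.1 to 125.6 CPM and Ntrk2 in theca-like cells from 4.12 to 33.1 CPM.

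Ngfr, the receptor p75, marked the stroma. Its level in stroma-like cells was 16.2, 21.98, 18.3 and 15.96 CPM, above mural-like cells at 2.15, 4.61, 3.47 and 2.10 CPM in every library. Theca-like cells held 0.37 to 0.90 CPM and granulosa-like cells 0.13 to 0.23 CPM, under the erythroid-like level. The receptor was spread more evenly than Bdnf over the 5 stroma-like clusters, at a pooled 14.7 to 23.6 CPM, and over cells, with 1.39 UMIs per positive cell and 19.3% of UMIs in the top 1% of cells. Schwann cells and neurons also carry p75 in nerves, so their markers were measured in the same class: the summed level of 6 Schwann or glial genes in stroma-like cells was 12.3, 12.2, 12.2 and 11.8 CPM, and that of 7 neuron genes 3.05, 3.79, 4.92 and 6.85 CPM, with none of either list at 0. Their part in the Ngfr level was not tested.

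Ntrk2, the receptor TrkB, was highest in stroma-like and mural-like cells. Its level was 100.9, 92.3, 70.5 and 76.15 CPM in stroma-like cells and 73.2, 79.9, 48.6 and 48.2 CPM in mural-like cells. Blood endothelial-like cells (Flt1, Cdh5, Cldn5) held 11.5, 24.2, 45.2 and 39.5 CPM, and theca-like cells (Cyp17a1, Lhcgr), the steroid-making cells around follicles, 9.65, 4.12, 33.1 and 18.3 CPM. The ranges of stroma-like and mural-like cells overlapped, as did those of endothelial-like and theca-like cells. The control library's level in endothelial-like cells, and the control and doxorubicin levels in theca-like cells, lay inside the range of erythroid-like cells, which ran from 0 to 14.8 CPM over the libraries on 11 UMIs in all. Granulosa-like cells held 0.89 to 2.04 CPM, under the pooled erythroid-like level. After thinning, 18.2%, 14.9%, 12.6% and 14.3% of stroma-like cells had an Ntrk2 UMI (45.0%, 43.3%, 36.4% and 34.6% before), against 0 of 191 erythroid-like cells.

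The clusters with most Ntrk2 were the Dpt Clec3b fibroblasts (cluster 14) and the Rgs5 Notch3 pericyte-type cells (cluster 21). Cluster 14 held 240.1, 256.1, 202.9 and 219.95 CPM and cluster 21 held 194.6, 203.4, 182.6 and 192.2 CPM, with overlapping counting intervals in the doxorubicin+AMH and AMH libraries. Cluster 2, whose leading genes include Cxcl14 and Lrat, followed at 135.7, 128.1, 95.6 and 74.7 CPM, and cluster 9 at 110.8, 114.55, 76.8 and 83.4 CPM. The fibroblast cluster with most Ntrk2 was thus the one with least Bdnf, and cluster 9 was high in both.

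Ntrk3, the receptor TrkC, was highest in mural-like cells, at 125.6, 102.1, 102.96 and 102.1 CPM. Stroma-like cells followed at 48.3, 35.3, 36.45 and 39.5 CPM, without overlap. Of 3374 mural-like cells, 1572 had an Ntrk3 UMI, with 3.21 UMIs per such cell, and after thinning the share was 17.9%, 16.45%, 14.7% and 15.4% (49.1%, 43.8%, 48.0% and 44.4% before), against 1.05% of erythroid-like cells. The contractile cluster 1 held 143.5, 112.8, 113.4 and 108.4 CPM, while the pericyte-type cluster 21 held 26.5, 30.7, 7.02 and 25.2 CPM. Within mural-like cells Ntrk3 was thus higher in contractile cells and Ntrk2 and Ntf3 higher in pericyte-type cells, in all 4 libraries. In the stroma, cluster 9 stood out at 141.2, 100.5, 108.5 and 122.6 CPM, against a pooled 22.0 to 32.0 CPM in the other 4 clusters. Its pooled level of 120.0 CPM was near that of contractile cluster 1, at 119.7 CPM. Cluster 9 also met the marker count for the mural name, but only stroma markers were among its 10 leading genes.

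Shares of cells with UMIs of 2 of the genes were set beside the product of their single shares. After thinning, Bdnf and its receptor gene Ntrk2 occurred together in 0.72%, 0.29%, 0.43% and 0.28% of stroma-like cells, beside products of the single shares of 0.81%, 0.60%, 0.38% and 0.42%. The receptor genes Ntrk2 and Ntrk3 occurred together in 1.91%, 1.33%, 1.38% and 1.32% of mural-like cells, beside products of 2.48%, 1.91%, 1.44% and 1.24%. Each product lay within the exact interval of the observed share, which rested on 6 to 21 cells per library. Bdnf and Ntrk3 were seen together in mural-like cells in 2 to 6 cells per library after thinning, too few to separate from the product. Without thinning their shares were 5.99%, 8.21%, 8.27% and 5.41%, beside products of 3.91%, 5.08%, 5.22% and 3.603%, each product under the exact interval of the share (4.61% to 7.63%, 6.18% to 10.7%, 6.47% to 10.4% and 4.04% to 7.06%). Unthinned cells differ in depth, whose part in this was not tested.

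For the 4 genes that reached 20 CPM in a class, the genes with the most similar pattern were named by Pearson's r of log2(CPM + 5) over 24 sums (6 classes in 4 libraries, sums of 1 library sharing its depth), among 9483 genes. They were Col16a1 (0.99), Plcxd3 (0.98) and Fgf2 (0.98) for Bdnf, and Lrat (0.97), Dpt (0.97) and D630033O11Rik (0.96) for Ngfr. For Ntrk2 they were Hic1 (0.96), Lhfp (0.96) and Mill2 (0.96), and for Ntrk3 Itgbl1 (0.99), Adcy5 (0.98) and A330015K06Rik (0.98). These values describe likeness between classes. The 24 points are not independent.

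The study asks whether AMH alters the ovary's response to doxorubicin. Its 4 libraries give 2 doxorubicin ratios that share no library (doxorubicin / control and doxorubicin+AMH / AMH) and 2 AMH ratios that share none (AMH / control and doxorubicin+AMH / doxorubicin). The former are called the doxorubicin ratio without and with AMH, the latter the AMH ratio without and with doxorubicin, and paired values follow that order. A gene whose mean in a class was 20 CPM or more was called when its level differed more than 2-fold. In stroma-like cells, Bdnf, Ntrk2 and Ntrk3 reached that mean and 0 of 3 were called in any ratio, beside 0.0907% of 6614 genes in doxorubicin / control, 0.151% in doxorubicin+AMH / AMH, 0.227% in AMH / control and 0.272% in doxorubicin+AMH / doxorubicin. In mural-like cells the same 3 genes reached it and 0 of 3 were called, beside 0.651%, 0.575%, 0.303% and 0.378% of 6607 genes in the same order. With so few calls over all genes, a count of 0 among 3 does not set these genes apart.

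**Figure D3:**
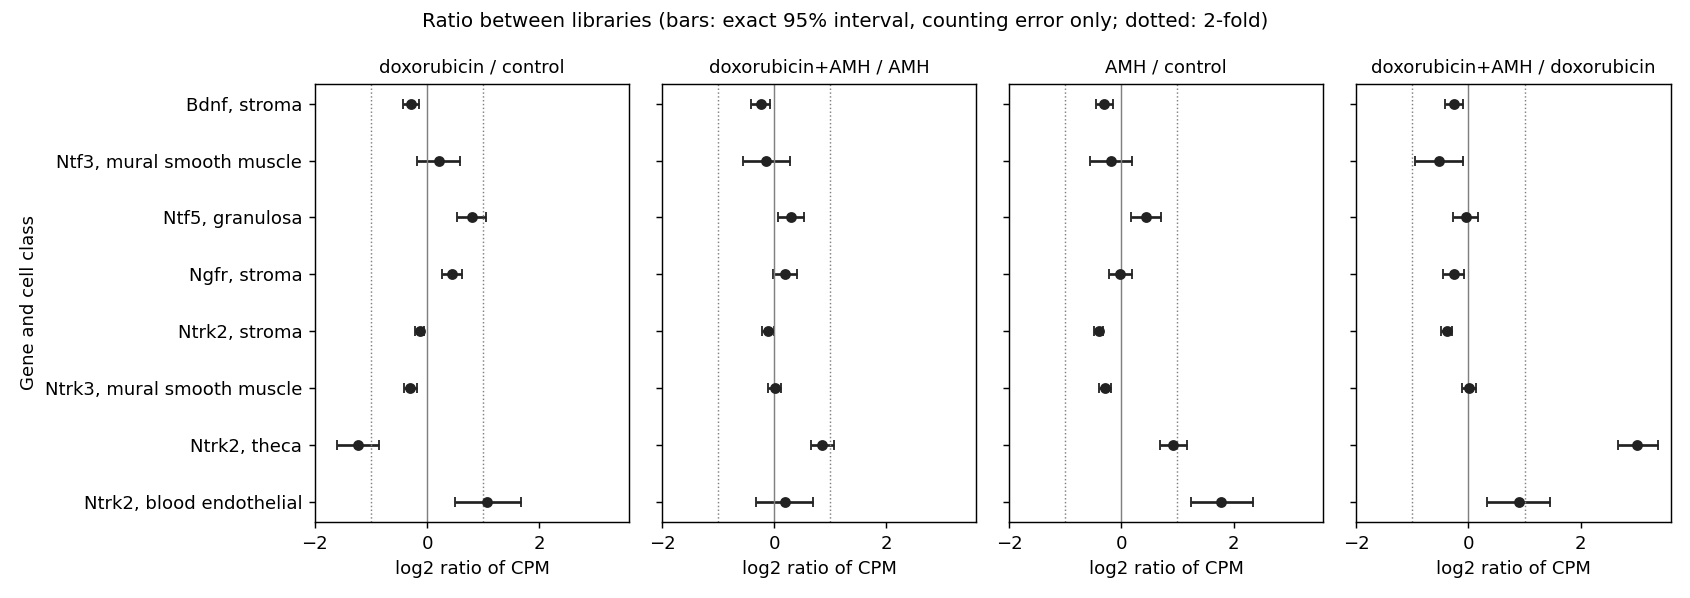
Log2 ratio of CPM between libraries (horizontal axis) for each gene in its main class, and for Ntrk2 in 2 further classes (rows), 1 panel per ratio; bars are exact 95% intervals for counting error only and dotted lines mark 2-fold. The stroma-like and mural-like ratios lie within 2-fold, while Ntrk2 in theca-like cells runs from −1.23 to 3.01.

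With doxorubicin, the ratios of Ngfr in stroma-like cells were above 0, and those of Bdnf, Ntrk2 and Ntrk3 below 0. The doxorubicin log2 ratio of Ngfr was 0.44 (0.27 to 0.61) without AMH, and 0.20 (−0.02 to 0.41) with AMH in both libraries, an interval that includes 0. That of Ntrk2 was −0.13 (−0.21 to −0.05) and −0.11 (−0.21 to −0.01), the first becoming 0.24 when each library was clustered alone. The difference in Ngfr was unequal among clusters. In cluster 3 it was at 13.4, 31.98, 24.2 and 14.3 CPM, giving log2 ratios of 1.26 (0.86 to 1.67) and 0.76 (0.34 to 1.19), and in cluster 9 at 18.002, 29.2, 20.6 and 16.5 CPM, giving 0.70 (0.28 to 1.12) and 0.31 (−0.24 to 0.88). Both libraries with doxorubicin thus lay above both without it in these clusters. Cluster 4, which held the most Ngfr UMIs, was at 15.2, 18.98, 11.2 and 13.7 CPM, giving 0.32 (0.02 to 0.63) and −0.29 (−0.75 to 0.16), and cluster 2 was at 12.3, 17.2, 14.8 and 15.4 CPM, giving 0.48 (−0.02 to 0.98) and −0.06 (−0.62 to 0.49). In both, the ratio with AMH was below 0. In the Dpt Clec3b fibroblasts (cluster 14) Ngfr was at 26.9, 13.65, 36.8 and 23.3 CPM, lowest in the doxorubicin library and highest in the doxorubicin+AMH library. In mural-like cells Ngfr was at 29, 42, 39 and 26 UMIs, with doxorubicin log2 ratios of 1.10 (0.38 to 1.83) and 0.73 (−0.02 to 1.503), at levels under 5 CPM and inside the erythroid-like range of 0 to 7.41 CPM.

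Ntrk3 was lower with doxorubicin in the Dpt Clec3b fibroblasts, at 51.9, 13.65, 16.7 and 34.4 CPM. The doxorubicin log2 ratio was −1.93 (−2.44 to −1.44) without AMH and −1.04 (−1.73 to −0.40) with it, so that both libraries with doxorubicin lay under both without. These levels rest on 363 UMIs in all, from 301, 197, 133 and 263 cells. In stroma-like cluster 9, at the levels given above, both libraries with doxorubicin also lay under both without. For single clusters, here and elsewhere, no share of genes past 2-fold was counted. Over the whole stroma-like class the ratios were smaller, at −0.45 (−0.57 to −0.33) and −0.12 (−0.26 to 0.03). In mural-like cells Ntrk3 had log2 ratios of −0.30 (−0.42 to −0.18) and 0.01 (−0.10 to 0.13), since the control library alone lay high. With cells gated directly on markers they became −0.94 and −0.28. Bdnf in stroma-like cells had negative log2 ratios in all 4 comparisons, of −0.28 (−0.42 to −0.15), −0.24 (−0.41 to −0.07), −0.30 (−0.45 to −0.16) and −0.26 (−0.43 to −0.10), in the order in which the ratios were introduced. These values depended on the choice of cells: the first became −0.51 with a minimum of 500 UMIs and −0.030 with each library clustered alone, the second −0.031 and the third −0.48 with doublets kept, and the last 0.0049 with a minimum of 500 UMIs. Ntf5 in granulosa-like cells, under the mean needed for a call, had log2 ratios of 0.79 (0.53 to 1.06), 0.31 (0.08 to 0.54), 0.44 (0.18 to 0.70) and −0.05 (−0.28 to 0.18). The levels behind all 4 lay inside the pooled erythroid-like interval of 0.18 to 5.24 CPM, which rests on 2 UMIs.

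With AMH, Ntrk2 transcripts were lower in the stroma-like and mural-like classes as a whole, but not in every cluster. The log2 ratio of Ntrk2 was −0.41 (−0.50 to −0.32) for AMH / control and −0.39 (−0.48 to −0.30) for doxorubicin+AMH / doxorubicin in stroma-like cells, beside medians over all genes of −0.08 and −0.03. With each library clustered alone these became −0.59 and −0.96. In mural-like cells it was −0.60 (−0.75 to −0.45) and −0.72 (−0.88 to −0.55), so both libraries with AMH lay under both without. The contractile cluster 1 held 64.3, 66.1, 41.5 and 41.97 CPM, with ratios of −0.61 (−0.80 to −0.43) and −0.67 (−0.86 to −0.48). The pericyte-type cluster 21 gave −0.02 (−0.32 to 0.28) and −0.16 (−0.48 to 0.17). Cluster 18, with 205, 21, 58 and 180 cells, held 46.7, 6.58, 9.40 and 27.4 CPM on 138, 2, 6 and 68 UMIs, too uneven in cell number for a ratio with the doxorubicin library. In the stroma, clusters 2 and 9 were lower in both ratios, with log2 values of −0.86 (−1.06 to −0.66) and −0.42 (−0.62 to −0.23) in cluster 2 and −0.41 (−0.64 to −0.19) and −0.58 (−0.80 to −0.35) in cluster 9. Cluster 14, at the highest Ntrk2 level, gave −0.13 (−0.27 to 0.02) and −0.34 (−0.53 to −0.14). Cluster 3 gave −0.89 (−1.13 to −0.65) and 0.08 (−0.15 to 0.31), and cluster 4 gave −0.55 (−0.81 to −0.29) and 0.09 (−0.13 to 0.31), so that their difference was in the pair without doxorubicin.

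The AMH ratios of Bdnf differed among clusters. In cluster 9, where it was highest, its log2 ratios were −0.52 (−0.77 to −0.27) and −0.69 (−0.95 to −0.44). In cluster 3 they were −0.02 (−0.27 to 0.22) and −0.45 (−0.74 to −0.15), and in cluster 4 they were 0.04 (−0.30 to 0.38) and 0.16 (−0.19 to 0.50). In mural-like cells they were 0.39 (0.15 to 0.63) and 0.14 (−0.12 to 0.40), which became −1.24 and −1.91 with cells gated directly on markers. The first of these, before gating, compares 324 UMIs in the AMH library with 269 in the control library. One cell held 86 of the 324, so that the direction of this ratio rests on that cell. In cluster 2 Bdnf was at 13.8, 8.59, 5.10 and 2.09 CPM, with a log2 ratio of −2.72 (−3.98 to −1.67) for AMH / control and −0.75 (−1.63 to 0.09) for doxorubicin+AMH / doxorubicin. Ntrk3 in mural-like cells had ratios of −0.30 (−0.40 to −0.19) and 0.01 (−0.11 to 0.14). The summed level of the 8 stroma markers in stroma-like cells was 8583, 8306, 6928 and 8439 CPM, and of the 8 mural markers in mural-like cells 15132, 14076, 14738 and 13266 CPM. Markers of other classes also differed: in stroma-like cells the mural markers summed to 715, 657, 1026 and 904 CPM and the 8 granulosa markers to 333, 360, 485 and 502 CPM, higher in both libraries with AMH. In mural-like cells the stroma markers summed to 4375, 4662, 4541.5 and 4227 CPM and the granulosa markers to 320.01, 338, 472 and 485 CPM, the latter again higher with AMH. The 6 Schwann or glial genes summed to 14.3, 12.9, 9.80 and 7.26 CPM there, and the 8 theca markers to 221, 189, 143 and 174 CPM. Both of these were lower in both libraries with AMH, as Ntrk2 was. None of these markers was at 0, and their part in these ratios was not tested.

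**Figure D4:**
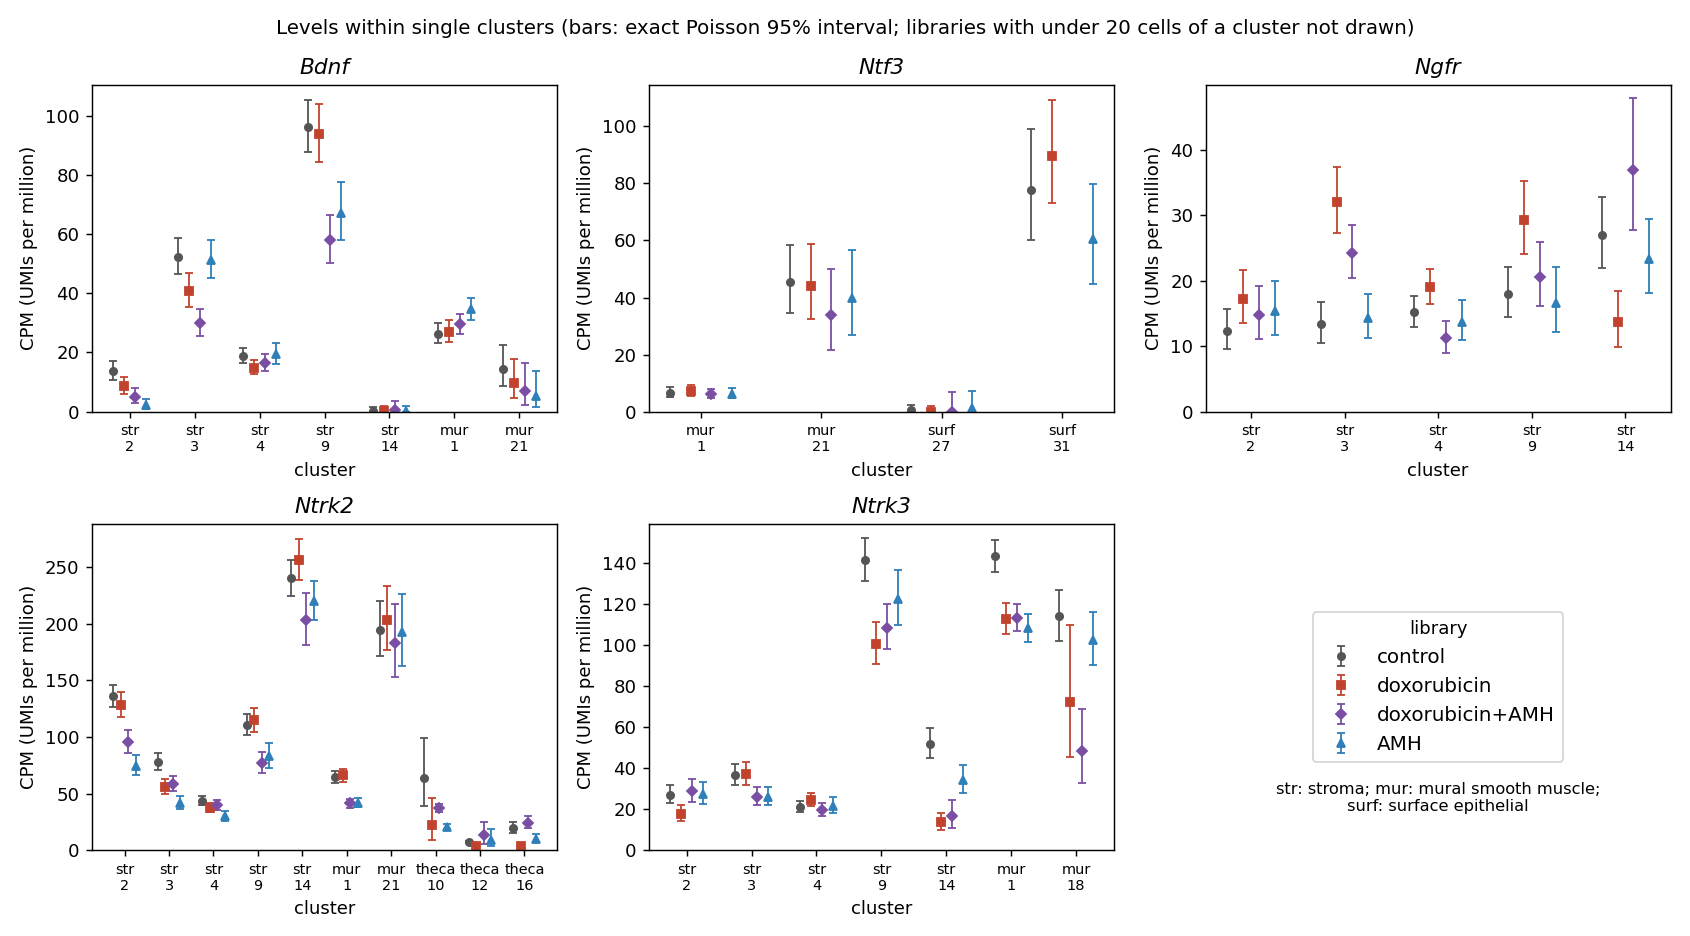
Level in CPM (vertical axis) of 5 genes within single clusters (horizontal axis: class and cluster number) by library; bars are exact Poisson 95% intervals, and libraries with under 20 cells of a cluster are not drawn. Ngfr in stroma-like clusters 3 and 9 is highest in the doxorubicin library, and Ntrk3 in stroma-like cluster 14 is lowest in both libraries with doxorubicin (13.65 and 16.7 CPM).

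Ntrk2 in theca-like cells varied widely between libraries. Its level of 9.65, 4.12, 33.1 and 18.3 CPM came from 247, 78, 514 and 323 UMIs in 124, 45, 190 and 173 cells, so the doxorubicin library was lowest and the doxorubicin+AMH library highest. The doxorubicin log2 ratios were −1.23 (−1.61 to −0.85) without AMH and 0.85 (0.65 to 1.06) with it, and the AMH log2 ratios were 0.92 (0.68 to 1.17) without doxorubicin and 3.01 (2.66 to 3.37) with it. Since the mean lay between 10 and 20 CPM, they were set beside the 2317 theca-like genes of that range, of which 0.388%, 0.216%, 7.6% and 8.24% were past 2-fold in these ratios. After thinning, 1.82%, 0.94%, 6.81% and 4.25% of theca-like cells had an Ntrk2 UMI (14.9%, 7.98%, 26.8% and 19.6% before thinning). With doublets kept, the first ratio became −0.85. The control and doxorubicin levels lay inside the erythroid-like range of 0 to 14.8 CPM, which rests on 11 UMIs. Erythroid-like cells were also shallower, at a median of 5451 UMIs against 20527 and 24676 in the theca-like cells of these libraries. That range thus does not settle whether the control and doxorubicin levels exceed background.

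Different clusters made up this class in different libraries. Cluster 12 (Cyp17a1, Cyp11a1) held 658, 413, 34 and 25 of its cells, and cluster 10 (Lhcgr, Prss35, Aldh1a1) held 36, 21, 555 and 745. Cluster 16 (Cyp17a1, Sct, Enpep) had 137, 130, 121 and 112 cells, and in it Ntrk2 was at 19.9, 3.71, 24.5 and 10.2 CPM. There the log2 ratios were −2.42 (−3.49 to −1.498), 1.26 (0.70 to 1.86), −0.96 (−1.58 to −0.36) and 2.73 (1.82 to 3.78), so that AMH / control turned to the opposite sign while both doxorubicin ratios kept theirs, a view chosen after seeing the data. Cluster 12 held 7.21, 3.84, 13.2 and 9.04 CPM of Ntrk2, on 9 and 7 UMIs in the libraries with AMH, and cluster 10 held 64.0, 22.3, 37.4 and 20.98 CPM, on 20 and 7 UMIs in those without. AMH / control was thus above 0 in cluster 12 and below 0 in clusters 10 and 16. One cell held 21 of the 36 Ntrk2 UMIs of cluster 16 in the AMH library and another 26 of the 96 in the doxorubicin+AMH library, so the last 3 of these ratios rest partly on single cells. The 8 stroma markers summed to 475, 498, 1211 and 1272 CPM in the whole theca-like class, higher in both libraries with AMH, but to 1759, 1383, 1611 and 1808 CPM in cluster 16, where they were not. The 8 mural markers summed to 57.3, 38.6, 85.6 and 80.5 CPM in the class, lowest in the doxorubicin library and highest in the doxorubicin+AMH library, as Ntrk2 was, but to 106.6, 56.9, 83.9 and 141.8 CPM in cluster 16, where the AMH library was highest. The 8 theca markers summed to 17946, 17490.5, 7463 and 6584 CPM, lower in both libraries with AMH. None of these markers was at 0 in the class. The 6 Schwann or glial genes summed to 5.08, 4.70, 8.05 and 7.60 CPM in the class, with Foxd3 at 0. The part of these markers in the Ntrk2 level was not tested.

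In blood endothelial-like cells, which formed 1 cluster, the lowest Ntrk2 level was that of the control library. The 11.5, 24.2, 45.2 and 39.5 CPM came from 43, 62, 51 and 95 UMIs in 16, 13, 10 and 23 cells, and 1 cell held 20.9%, 32.3%, 23.5% and 17.9% of them. The doxorubicin log2 ratios were 1.08 (0.49 to 1.67) without AMH and 0.19 (−0.33 to 0.70) with it, and the AMH log2 ratios were 1.78 (1.25 to 2.34) without doxorubicin and 0.90 (0.34 to 1.46) with it. Ntrk2, the 1 member whose mean reached 20 CPM here, was thus called in doxorubicin / control and AMH / control, beside 0.436%, 1.57%, 1.83% and 1.57% of 6879 genes called in the 4 ratios. With doublets kept, the AMH / control ratio was 0.52. With a pseudocount of 20 CPM neither of the called ratios reached 2-fold. The doxorubicin / control call also rests partly on 1 cell, which held 20 of the 62 UMIs of the doxorubicin library. After thinning, 2.40%, 4.24%, 5.26% and 2.50% of cells had an Ntrk2 UMI, on 4 libraries of 57 to 167 cells, with overlapping intervals. The 8 mural markers, whose cells are high in Ntrk2, summed to 556, 575, 985 and 676 CPM in this class, and the 8 stroma markers to 262, 206, 268 and 649 CPM. Their part in the ratio was not tested.

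Of 37 other genes listed for the pathway, 36 were found. In stroma-like cells 21 of the 36 reached a mean of 20 CPM and 0 were called in any ratio, as were 0 of 20 in mural-like and 0 of 21 in blood endothelial-like cells, beside the shares of all genes given above for these classes. In theca-like cells 0 of 19 were called, beside 0.192%, 0.16%, 6.79% and 6.61% of 6261 genes in the 4 ratios. In macrophage-like cells 1 of 19 was called, Dusp6 in AMH / control, beside 3.75%, 4.4%, 2.11% and 5.33% of 6339 genes. Dusp6, a phosphatase that limits ERK signalling, was at 39.6, 48.2, 24.6 and 16.9 CPM there, with a log2 ratio of −1.23 in that comparison. Over these 21 genes in stroma-like cells the log2 ratios had medians of 0.01, 0.05, −0.12 and −0.01, beside −0.01, 0.04, −0.08 and −0.03 over all genes. Of the 21, 5 were singled out after their values were seen. Sorcs2, a sortilin-family partner of p75, was at 138.2, 125.9, 137.7 and 123.0 CPM in stroma-like cells. Pcsk5, a convertase that can cut precursor proteins, was at 445.6, 417.4, 356.9 and 327.0 CPM. The p75 partners Maged1 and Bex3 ran from 131.0 to 134.1 CPM and from 189.2 to 219.0 CPM over the libraries. Spry2, a feedback inhibitor of receptor tyrosine kinase signalling, was at 40.6, 43.4, 31.3 and 29.3 CPM, with a log2 ratio of −0.47 in each AMH comparison.

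In granulosa-like cells, 1 of 17 pathway genes that reached a mean of 20 CPM was called lower in both AMH ratios, beside 0.665% of 6615 genes in AMH / control and 0.831% in doxorubicin+AMH / doxorubicin. This was Pcsk6, a convertase, at 65.4, 64.7, 15.3 and 19.96 CPM, with log2 ratios of −1.71 and −2.08. None of the 6 genes reached 20 CPM in these cells.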

How the data were processed

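The deposited files hold UMI counts per gene and cell, which the authors made with Cell Ranger 7.0.0, per the file headers. The submitters' processing notes name mm10, R 4.2.0 and Seurat 4.1.0. Libraries were 3′ droplet libraries (10x Genomics, version 3.1 chemistry, per the labels' protocols), with 138647495 to 178279122 UMIs each.

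Cells under 1000 UMIs or over 20% mitochondrial UMIs were left out. Doublets were ranked by Scrublet score within each library and removed at 0.8% per 1000 cells, which took 616 (control), 362 (doxorubicin), 435 (doxorubicin+AMH) and 659 (AMH) cells. The caller's own threshold marked 194, 0, 1 and 0 and was not used. Cells were clustered jointly without batch correction (scanpy 1.11.5, leidenalg 0.10.2; 2000 variable genes, 30 components, 20 neighbours, resolution 1.0). A cluster was named when at least 3 markers and 60% of a list exceeded the median cluster by 1 log2 unit or more and were seen in 10% of cells or more, with at least 1 of the list's markers among its 10 leading genes. The names are rebuilt and may differ from the study's. Of the 11 classes, 6 had at least 50 cells in each library and were compared.

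Counts were summed per class and library and scaled to CPM. Ratios use no pseudocount, and a count of 0 was set to a floor of 3 counts per library. Intervals were exact: Poisson for levels, conditional binomial for ratios, Clopper-Pearson for shares. No test was run, since each group has 1 library. The ratio and interval code was tested on simulated data. Alternatives were other filters, clusterings, gating, scaling and pseudocounts.

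The 6 genes, the marker and pathway lists and the comparisons were chosen with earlier results of these data known. Named genes were all 6, the 3 genes most similar to each gene reaching 20 CPM, and pathway genes past 2-fold in both ratios of a kind within a class where a member is highest; 6 other pathway genes were named after their values were seen. Some genes of the marker and pathway lists are not reported here and were left out of the sums and counts over those lists. At most 1.30% of the 31-base stretches of a member's transcripts also occur in other genes (Ntf5), and 0 in Ntf3.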

Additional observations from a re-analysis of the deposited data

Results flagged for a closer look

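Ntrk2 in theca-like cells was picked out because its doxorubicin ratios had opposite signs: the log2 ratio was −1.23 without AMH (doxorubicin / control) and 0.85 with it (doxorubicin+AMH / AMH). The control and doxorubicin levels behind the first lay inside the range of erythroid-like cells (0 to 14.8 CPM). Each side of a ratio rests on 1 library, so the difference between the ratios was not tested.

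Bdnf was picked out in a cluster that entered no comparison because it could not be named. Cluster 15, 548 cells led by Enpep, Hhip and the cell cycle genes Top2a and Mki67, held a pooled 24.3 CPM of Bdnf. Its level was 35.4 CPM in the control library and 21.96 CPM with AMH alone, and 14.4 CPM with doxorubicin alone and 25.8 CPM with both. Ngfr in the same cluster was at 14.5, 10.2, 11.3 and 14.3 CPM in those libraries, as ordered here. With 1 library per group, no group had enough samples to look for an outlying one.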

How the results depend on the processing

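No paired analysis was possible because each group has 1 library, and no replicate could be left out. Each of 32 main log2 ratios was recomputed under 11 alternatives. Of 352 values, 302 stayed within the counting interval, 50 moved out of it, and 15 changed sign. Of 253 values of 23 further ratios in other classes, 45 moved out and 28 changed sign. The mean level of each gene in its highest class moved out of its counting interval for 4 of 6 genes each with a minimum of 500 UMIs, with doublets kept and with gating. Leiden resolution 0.5, a mitochondrial limit of 10% and median-of-ratios scaling moved none of the 32. Ratios are called D for doxorubicin / control, E for doxorubicin+AMH / AMH, A for AMH / control and B for doxorubicin+AMH / doxorubicin, given in the order D, E, A, B, and the cause of each move was not tested.

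Ntrk2 in theca-like cells moved to −0.85 (D) and 2.50 (B) with doublets kept, to −0.68, 0.67 and 2.06 (D, A, B) with a pseudocount of 5 CPM, to −0.30, 0.47, 0.37 and 1.14 with 20 CPM, and to 0.53 (E) and 2.51 (B) with cells weighted equally. Only clusters with at least 50 cells in each library, an alternative chosen after seeing the data, gave −2.42, 1.26 and −0.96 (D, E, A). Ntrk2 in blood endothelial-like cells moved to 0.49 (D) and 0.92 (A) with a pseudocount of 20 CPM, and to 0.52 (A) and 0.18 (B) with doublets kept. Ntrk2 in stroma-like cells moved to 0.24, −0.59 and −0.96 (D, A, B) with each library clustered alone, to −0.54 (A) and −0.49 (B) with cells gated directly on markers, and to −0.56 (B) with doublets kept.

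Bdnf in stroma-like cells moved to −0.51 (D) and 0.0049 (B) with a minimum of 500 UMIs, to −0.030 (D) with libraries clustered alone, to −0.031 (E) and −0.48 (A) with doublets kept, and to −0.063 (B) with gating. Ngfr in stroma-like cells moved to 0.21 (D) with a pseudocount of 20 CPM and −0.23 (A) with gating. Ntf3 in mural-like cells moved to 1.07 (D) and 0.59 (E) with gating. Ntrk3 in mural-like cells moved in D to −0.47 (500 UMIs), −0.49 (doublets kept), −0.42 (libraries alone) and −0.94 (gating), in E to −0.28 (gating), in A to −0.41 (500 UMIs), −0.42 (doublets kept) and −0.17 (cells weighted equally), and in B to 0.18 (doublets kept) and 0.34 (gating). Ntf5 in granulosa-like cells moved to 0.35 (D) with a pseudocount of 5 CPM, to 0.13, 0.057 and 0.066 (D, E, A) with 20 CPM, and to 0.54 (E) and 0.26 (B) with cells weighted equally.

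The number of genes past 2-fold over stroma-like, mural-like and blood endothelial-like cells was 79, 156, 161 and 151. It became 6895, 7243, 6629 and 7157 with no filter on low values, 33, 56, 57 and 43 with a mean of at least 50 CPM, and 105 (A) and 94 (B) with a pseudocount of 5 CPM. Of theca-like genes at 10 to 20 CPM, 9, 5, 176 and 191 were past 2-fold, and 2, 1, 82 and 81 with a pseudocount of 5 CPM. The all-gene median of ratio A in granulosa-like cells went from −0.07 to 0.05 with median-of-ratios scaling. Shares of cells with UMIs of 2 of the genes were compared with and without thinning where at least 10 cells held both before thinning, and all 43 such shares moved out of their thinned intervals. Depth limits Ntf3 and Ntf5 most, which held 1045 and 1613 UMIs over all kept cells.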

Other observations

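The unnamed cycling cluster 15 also held Ntrk3, at 23.98 CPM in the control library, 5.27 CPM with doxorubicin alone, 13.9 CPM with both agents and 11.1 CPM with AMH alone. The control library was highest and the doxorubicin library lowest for both Ntrk3 and Bdnf in these cells. The log2 ratio of Ntrk3 was −2.19 (−2.85 to −1.57) for doxorubicin / control and 0.32 (−0.28 to 0.94) for doxorubicin+AMH / AMH, and that of Bdnf was −1.30 (−1.71 to −0.89) and 0.23 (−0.20 to 0.67).

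Oviduct epithelial-like cells, which come with the ovary when it is dissected, held pooled levels of 23.9 CPM of Ntrk3 and 15.2 CPM of Ntrk2. They numbered 145, 4, 49 and 243 in the 4 libraries and were not compared. The 4 cells of the doxorubicin library went against the name: their oviduct markers summed to 44.5 CPM, against 3756 to 9329 CPM in the other libraries, and their oocyte markers to 8758 CPM. They held 8 UMIs of Ntf5 (25.4 CPM, 10.97 to 50.05), the highest Ntf5 level of any class and library, 2 of Ntf3, and none of the other 4 genes.

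The Dpt Clec3b fibroblasts (cluster 14) held a pooled 6.4 CPM of Ntf3, the highest of the stroma-like clusters, and were at 6.72, 2.86, 2.01 and 12.1 CPM in the same order of libraries. Both libraries with doxorubicin lay under both without it, on few UMIs: the log2 ratio was −1.23 (−2.52 to −0.09) for doxorubicin / control and −2.60 (−4.94 to −0.93) for doxorubicin+AMH / AMH. The doxorubicin+AMH level, from 133 cells, was at the floor of 3 counts, so the last ratio has 1 side at the floor.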
